A study of Mus musculus with 12 samples.

Results

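The neurotrophins, the GDNF family ligands and their receptors were followed in the hippocampus of 3 strains of MRL mice. The members were the 9 genes *Bdnf*, *Ntf3*, *Gdnf*, *Nrtn*, *Ntrk2*, *Ntrk3*, *Gfra1*, *Gfra2* and *Ret*, taken as every array probe that is not a control and carries one of these names. They account for 9 of the 29608 genes, 14 of the 39429 probes and 23 of the 43020 spots of the array. Hippocampal RNA of 12 adult female mice, about 12 weeks old and all in diestrus, was hybridized to 6 Agilent 2-colour arrays of 60-base probes. Each array held 2 mice of the same strain, replicate 1 or 3 labelled with Cy3 and replicate 2 or 4 with Cy5. The MRL/lpr group (4 mice) has the *lpr* mutation, a loss of function of the death receptor gene *Fas*, and this strain develops lupus-like disease. The 4 mice labelled Fn14koMRL (Fn14ko here) carry the same mutation and, in addition, a knockout of *Tnfrsf12a*, the gene of the TWEAK receptor Fn14, and they were littermates of the MRL/lpr mice. The 4 MRL/MpJ mice (MRL/+ here) are the MRL background without the *lpr* mutation and came from another supplier, so that source and strain cannot be told apart in any comparison with MRL/+. Both arrays of a strain lay on 1 slide with 1 scan time, so slide and strain cannot be told apart either.

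Neurotrophins are secreted growth factors that keep neurons alive and tune synapses. Each binds a receptor tyrosine kinase of the Trk family, BDNF mainly TrkB (*Ntrk2*) and neurotrophin-3 mainly TrkC (*Ntrk3*), and both receptor genes also make truncated forms that lack the kinase. GDNF family ligands signal through another pair of partners, a co-receptor anchored to the membrane by a lipid (GFRα1 for GDNF, GFRα2 for neurturin) and the shared kinase RET. In the hippocampus BDNF and TrkB are known above all for their part in long-term potentiation and memory.

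*Gfra2*, the co-receptor of neurturin, was the one member past the threshold with all 12 samples. It was 3.03-fold lower in MRL/lpr than in MRL/+ and 4.02-fold lower than in Fn14ko-labelled mice. Both calls treat mice that share an array as independent. Neither held with the array as a random block (limma adjusted p = 0.29 and 0.28). Without the dimmest array, on spots valid in the other 10 samples, only the call against Fn14ko-labelled mice held (adjusted p = 0.11 and 0.031). *Ntrk2*, the TrkB gene, did not pass in either comparison, although its probe for the full-length receptor passed against MRL/+. With the dimmest array left out, *Ntf3*, the neurotrophin-3 gene, was higher in the 2 remaining MRL/lpr mice than in the other strains, and *Nrtn*, the neurturin gene, was lower in Fn14ko-labelled mice than in MRL/+. For *Bdnf*, *Ntrk3*, *Gfra1* and *Ret* as genes no comparison passed at the main processing settings with all 12 samples or with the 10 outside that array, and *Gdnf* was hardly detected.

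The probes behind these values are given first, because the results differ between probes of the same gene. Not every probe is printed. Of those shown, the ones taken to lie in coding sequence have all 60 bases and the others the first 30. The bases run 5′ to 3′, as the deposited files list them. Positions are on mm9. The *Gfra2* probe (chr14:71379586-71379645, plus strand), the *Nrtn* probe (chr17:56890748-56890807, minus strand) and the *Ntf3* probe (chr6:126051431-126051490, minus strand) carry the differences named above.
Gfra2: tgcattcactcttaaccaagctccaataaa
Nrtn: aagggccctccctgccgaccctcgctgaga
Ntf3: tttggcattcagtattgtcaaggccatgac

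The 3 probes of *Ntrk2* are shown because they separate its transcripts. A probe on chr13:59230936-59230995 (plus strand) lies on the transcript of the full-length receptor and was spotted 10 times. Another on chr13:58979563-58979622 (plus strand) lies in coding sequence shared by the full-length and truncated receptors, around the stretch that crosses the membrane. The third, on chr13:59038046-59038105 (plus strand), lies on the transcript of the truncated receptor.
Ntrk2, full-length: tcaattgatacctatgtgcacgtgtgcaga
Ntrk2, shared coding: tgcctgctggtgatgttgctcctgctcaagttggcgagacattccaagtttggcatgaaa
Ntrk2, truncated: ttctcaccagcttaattttagccgatgcat

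*Ntrk3* had 4 probes on the minus strand. Those on chr7:85337455-85337514 (called the first below) and chr7:85392044-85392103 (the second) lie in coding sequence of the full-length receptor and are shown because they moved apart, and those on chr7:85445908-85445967 and chr7:85447515-85447574 lie on the transcript of the truncated receptor.
Ntrk3, full-length, first probe: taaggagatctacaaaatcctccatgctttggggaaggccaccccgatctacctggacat
Ntrk3, full-length, second probe: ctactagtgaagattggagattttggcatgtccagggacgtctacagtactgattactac

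*Bdnf* (chr2:109566961-109567020, plus strand), *Gdnf* (chr15:7787474-7787533, plus strand), *Gfra1* (chr19:58311604-58311663, minus strand) and *Ret* (chr6:118101791-118101850, minus strand) each had 1 probe and 1 spot. Where these, the truncated-receptor probes of *Ntrk3* and the other probes printed in part lie within the exons of their genes was not analysed here.

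The array of MRL/lpr replicates 3 and 4, called the dim array below, stood apart. The median foreground over background there was 1.93 and 1.73, against 4.42 to 12.6 for all 10 remaining samples, and 25.2% and 19.6% of spots were well above background, compared with 29.6% to 68.1%. The lowest of the other shares, 29.6% and 31.8%, belonged to the Cy5 channels of MRL/+ (replicates 2 and 4), in which the median of the negative control spots was 208 and 211 intensity units, compared with 33.2 to 90.6 elsewhere. The dim array also differed in its profile over the genes with a spot valid in all 12 samples. Its log2 levels correlated with samples of other arrays at r of 0.439 to 0.492 (replicate 3) and 0.263 to 0.319 (replicate 4). For each of the 10 remaining samples the highest such r lay between 0.967 and 0.994. The probe of the targeted gene *Tnfrsf12a* was well above background in all 4 Fn14ko-labelled mice, with levels of 4.63, 3.49, 5.08 and 2.91. It read 7.08, 4.50, 1.63 and 0.809 in MRL/lpr and 6.81, 3.43, 12.9 and 3.51 in MRL/+, and the Fn14ko-labelled mice overlapped both strains. In the 10 samples outside the dim array it was lower in Fn14ko-labelled mice than in MRL/+ (−1.20, limma adjusted p = 0.0047) and 1.04 higher in MRL/lpr than in these mice (adjusted p = 0.026), with no overlap in either once scaled to the spots valid in those 10. Whether it lies in the deleted part is not given in the sources used here, and the mice are therefore called Fn14ko-labelled. *Fas*, the gene mutated in MRL/lpr and Fn14ko, averaged 0.556 ± 0.214 (SD, n = 4) in MRL/lpr, 1.58 ± 0.534 in MRL/+ and 1.19 ± 0.266 in Fn14ko-labelled mice. The MRL/lpr mice lay below all others, and the probe was well above background in 1 of them. With all 12 samples both differences of MRL/lpr missed the threshold (limma adjusted p of 0.064 and 0.053). Without the dim array, on the same genes, both passed (−1.59 and −1.21, adjusted p = 0.0014 and 0.012). With spots valid in 10 samples only that from MRL/+ did (−1.74 and −0.69, adjusted p = 0.023 and 0.39). Scaled to the spots valid in all 12 samples, they were −0.99 and 0.31 (adjusted p = 0.52 and 0.70).

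A level is the background-subtracted intensity of a probe divided by a median of its channel, so 1 stands for the median spot. Spots were valid where the foreground was at least 2 times background and no outlier flag was set. *Gfra2*, *Nrtn*, *Ntrk2* and *Ntrk3*, that is 4 of the 9 members, had a spot valid in all 12 samples, as did 8864 of the 29608 genes, and their levels are relative to the median of those spots. The other 5 members were measured with no filter, relative to the median of all probe spots, so levels on the first scale cannot be set against levels on the second, nor 1 gene's against another's. The fold changes come from limma with dye as a covariate, and adjusted p-values are over all genes of the table concerned. With 4 mice against 4, the exact permutation test (two-sided) cannot go below 0.0286, and it treats mice that share an array as independent.

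In MRL/lpr compared with MRL/+, 1 of the 9 members was called (*Gfra2*, lower), beside 9.17% of 8864 valid genes and 0.993% of all genes with no filter. Compared with Fn14ko-labelled mice, MRL/lpr again had 1 of 9 called (*Gfra2*, lower), beside 3.98% and 12.8%. Between Fn14ko-labelled mice and MRL/+ 0 of 9 members were called by limma, beside 0.519% and 0%. There 1 of 9 (*Nrtn*) had an unadjusted p under 0.05, beside 15.3% and 8.75%. The levels of the strains did not overlap for 1 member against MRL/+ (*Gfra2*), 3 against Fn14ko-labelled mice (*Ntrk2*, *Nrtn* and *Gfra2*) and 1 between the latter and MRL/+ (*Nrtn*). Among valid genes the share that did not overlap was 16.1%, 21.5% and 19.9% in the same order, and with no filter it was 5.64%, 31.5% and 7.89%. The counts of members are to be read against these shares, and the members are described 1 by 1. MRL/lpr and the other strains enter 2 comparisons each, so the comparisons share samples.

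*Bdnf* encodes the ligand of TrkB. Its levels with no filter were 7.30, 5.28, 1.41 and 1.11 in MRL/lpr replicates 1 to 4, 8.46, 13.96, 7.09 and 12.4 in Fn14ko-labelled mice, and 8.37, 4.22, 11.7 and 3.51 in MRL/+. The 2 low MRL/lpr values came from the dim array, where the probe was not well above background, and the other 2 lie within the range of MRL/+. The log2 fold change of MRL/lpr was −1.86 ± 0.64 (SE) against Fn14ko-labelled mice (limma adjusted p = 0.059) and −1.15 ± 0.64 against MRL/+ (adjusted p = 0.38). Without the dim array and with spots valid in the other 10 samples, the same differences were −0.19 ± 0.30 (adjusted p = 0.80, 95% interval −0.86 to 0.49) and −0.14 ± 0.30 (adjusted p = 0.77, −0.81 to 0.53). The call against Fn14ko-labelled mice was gained without MRL/lpr replicate 1 (−2.31, adjusted p = 0.030) or 2 (−2.26, adjusted p = 0.010), which leaves the dim array a larger share of the strain. It was also gained with Agilent's processed signal (−1.83, adjusted p = 0.024) and with estimated array weights (−1.92, adjusted p = 7.8e-06). Between Fn14ko-labelled mice and MRL/+ the difference was 0.71 ± 0.64 (adjusted p = 0.60), and it was −0.35 within Cy3 and 1.77 within Cy5. Relative to the median of the spots valid in all samples it turned to −0.21, and the 2 differences of MRL/lpr shrank to −0.61 from MRL/+ and −0.40 from Fn14ko-labelled mice.

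*Ntf3* encodes neurotrophin-3, the ligand of TrkC. Levels were 6.13, 5.58, 0.778 and 1.34 in MRL/lpr, 2.60, 1.80, 1.54 and 2.71 in Fn14ko-labelled mice, and 1.54, 1.86, 1.65 and 1.85 in MRL/+. On this scale both MRL/lpr mice outside the dim array lay above all 8 mice of the other strains. Both mice on the dim array, where the probe was not well above background, lay below all of them. Relative to the median of the spots valid in all samples, replicate 4 of the dim array was instead the highest of the 12 mice, at 0.409. With all 12 samples the differences of MRL/lpr were 0.51 ± 0.59 from MRL/+ (limma adjusted p = 0.73) and 0.22 ± 0.59 from Fn14ko-labelled mice (adjusted p = 0.79).

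With the 10 samples outside the dim array, *Ntf3* was 3.06-fold higher in MRL/lpr than in MRL/+ (log2 fold change 1.62 ± 0.41, limma adjusted p = 0.025) and 3.98-fold higher than in Fn14ko-labelled mice (1.99 ± 0.41, adjusted p = 0.014), and the strains did not overlap. In these fits 15.7% and 9.12% of 17936 genes were called. The levels on that scale were 1.43 and 1.43 in MRL/lpr, 0.233 to 0.562 in Fn14ko-labelled mice and 0.245 to 0.931 in MRL/+. The 2 MRL/lpr mice of this result were on the same array, and the 2 highest MRL/+ values came from the Cy5 channels with raised negative controls, where the probe was not well above background. Relative to the median of the spots valid in all samples, with all 12 samples, the differences were 1.05 (adjusted p = 0.25) and 1.67 (adjusted p = 0.051).

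*Gdnf*, the first ligand of its family, was not well above background in any MRL/lpr or MRL/+ mouse and was so in 2 of the 4 Fn14ko-labelled mice. Its levels ran from 0.0925 to 0.613 over all 12 mice. Those 2 mice were replicates 1 and 3, both labelled with Cy3, so a difference between strains is open to dye bias. With no filter, the log2 fold change of MRL/lpr against Fn14ko-labelled mice was −0.15 ± 0.66 (SE, limma adjusted p = 0.87). It was −0.48 within Cy3 and 0.18 within Cy5. After loess and Aquantile normalization the mean log2 intensities were 6.19 in MRL/lpr and 6.55 in Fn14ko-labelled mice. The direction of this difference turned with the scaling. Relative to the median of the spots valid in all samples, MRL/lpr was 1.30 higher on the log2 scale (adjusted p = 0.29). No minimum difference can be set from these values, and no fold is given in any comparison.

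*Nrtn* encodes neurturin, the ligand of GFRα2, and was well above background in all 12 mice. Levels were 1.25, 1.26, 2.26 and 2.02 in MRL/lpr, 1.00, 1.07, 1.15 and 0.857 in Fn14ko-labelled mice, and 1.58, 2.80, 1.52 and 2.00 in MRL/+. All 4 Fn14ko-labelled mice lay below all 8 others, whereas MRL/lpr and MRL/+ overlapped. Fn14ko-labelled mice were 0.92 ± 0.28 lower than MRL/+ on the log2 scale (95% interval 0.31 to 1.53 lower), with a limma adjusted p of 0.14 and the smallest p that the exact permutation test can give, 0.0286. With the 10 samples outside the dim array the difference of −0.67 ± 0.15 passed (adjusted p = 0.013), in a fit that called 21.1% of its 17936 genes. On the scale of the spots valid in all 12 samples the difference was −0.53 within Cy3 and −1.31 within Cy5, with no overlap in either dye. Fitted with no filter on spots, however, it was −0.000906 (adjusted p = 0.999). MRL/lpr exceeded Fn14ko-labelled mice by 0.69 ± 0.28 (adjusted p = 0.12), a difference of 0.22 ± 0.18 without the dim array (adjusted p = 0.53), and this call was gained without MRL/lpr replicate 1 (0.81, adjusted p = 0.048) or 2 (0.86, adjusted p = 0.032).

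**Figure D1:**
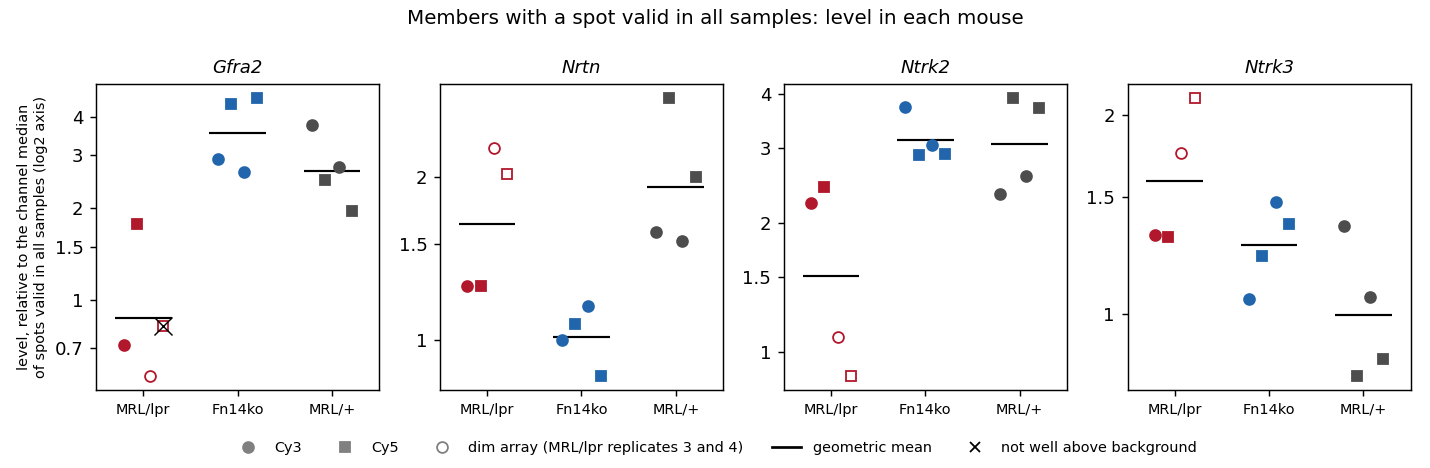
Level of the 4 members with a spot valid in all 12 samples, in each mouse, relative to the channel median of the spots valid in all samples (log2 axis); circles are Cy3, squares Cy5, open symbols the dim array, crosses samples not well above background and lines geometric means of 4 mice. *Gfra2* lies lower in all 4 MRL/lpr mice than in the other 8, and *Nrtn* lies lowest in the 4 Fn14ko-labelled mice.

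*Gfra2* encodes the co-receptor that binds neurturin and presents it to RET. Levels were 0.715, 1.78, 0.564 and 0.821 in MRL/lpr, 2.90, 4.38, 2.63 and 4.61 in Fn14ko-labelled mice, and 3.75, 2.48, 2.73 and 1.96 in MRL/+. On this scale every MRL/lpr mouse lay below every mouse of the other strains, the nearest values being 1.78 and 1.96. In MRL/lpr replicate 4 the probe was not well above background. The log2 fold change of MRL/lpr was −1.60 ± 0.35 against MRL/+ (limma adjusted p = 0.022, 95% interval −2.35 to −0.85) and −2.01 ± 0.35 against Fn14ko-labelled mice (adjusted p = 0.013, −2.76 to −1.25), compared with a median over all valid genes of −0.01 and 0.03. That median was −0.16 between Fn14ko-labelled mice and MRL/+, and for unfiltered genes it was −0.25, −0.08 and −0.02 in the 3 comparisons. The p of the exact permutation test was 0.0286 in both.

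The fall of *Gfra2* against MRL/+ was −2.33 within Cy3 and −0.87 within Cy5, and against Fn14ko-labelled mice it was −2.12 and −1.90, with no overlap in any of these 4 sets of 2 mice against 2. Without the dim array, on the same genes, it was −1.23 (adjusted p = 0.031) and −1.64 (adjusted p = 0.016). With spots valid in the other 10 samples the difference from MRL/+ was −1.07 ± 0.43 and no longer passed (adjusted p = 0.11), and that from Fn14ko-labelled mice was −1.73 ± 0.43 (adjusted p = 0.031). On that scale MRL/lpr overlapped MRL/+, with 6.71 in MRL/lpr replicate 2 and 6.08 in MRL/+ replicate 4. Fitted with no filter on spots, the difference from MRL/+ did not pass (−2.14, adjusted p = 0.22) and that from Fn14ko-labelled mice did (−3.46, adjusted p = 0.022). With the array as a random block, neither passed (adjusted p = 0.29 and 0.28), in fits that called 7 and 4 genes in all. Leaving out 1 mouse ended the call against MRL/+ for MRL/lpr replicate 3 (adjusted p = 0.056) and for MRL/+ replicates 1, 2 and 3 (0.058, 0.058 and 0.063), and the call against Fn14ko-labelled mice for their replicates 2 (0.060) and 4 (0.068).

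Between Fn14ko-labelled mice and MRL/+, *Gfra2* differed by 0.41 ± 0.35 (adjusted p = 0.67, 95% interval −0.35 to 1.16). The sign was not the same in both dyes, with −0.21 within Cy3 and 1.03 within Cy5.

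*Gfra1* encodes the co-receptor of GDNF, and *Ret* the kinase that both co-receptors share. *Gfra1* levels were 1.68, 1.05, 1.03 and 0.914 in MRL/lpr, 1.63, 0.937, 1.18 and 0.653 in Fn14ko-labelled mice, and 1.27, 0.828, 1.37 and 0.743 in MRL/+. *Ret* levels were 0.696, 1.02, 0.756 and 0.537 in MRL/lpr, 3.11, 0.902, 0.326 and 0.622 in Fn14ko-labelled mice, and 0.691, 0.701, 0.557 and 0.557 in MRL/+. Each was well above background in 7 of 12 mice. The strains overlapped in every comparison, and the log2 fold changes ran from 0.03 to 0.16 for *Gfra1* and from −0.24 to 0.48 for *Ret*, with limma adjusted p-values from 0.64 to 0.95. Their 95% intervals against MRL/+ reached from −0.50 to 0.82 for *Gfra1* and from −0.95 to 1.42 for *Ret* in MRL/lpr. Differences within these bounds were thus not excluded, in a fit that treats mice sharing an array as independent. Relative to the median of the spots valid in all samples the differences were 0.70, 1.58 and −0.88 for *Gfra1* and 0.78, 1.21 and −0.44 for *Ret* in the order of the comparisons, none of them past the threshold. With estimated array weights *Gfra1* passed against Fn14ko-labelled mice (0.47, adjusted p = 0.016). The highest *Ret* value, 3.11, was 1 Fn14ko-labelled mouse whose strain otherwise lay between 0.326 and 0.902.

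**Figure D2:**
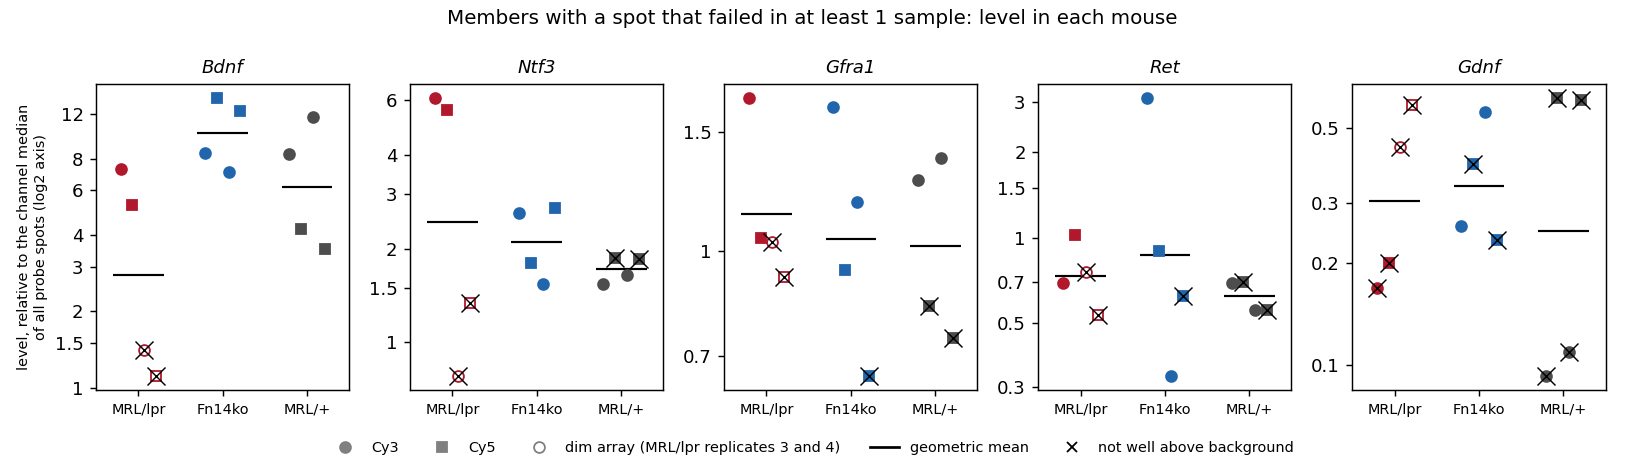
Level of the 5 members whose spot failed in at least 1 sample, in each mouse, relative to the channel median of all probe spots (log2 axis), with symbols for dye, the dim array and samples not well above background and lines for geometric means of 4 mice. On this scale the 2 dim-array mice lie lowest for *Bdnf* and *Ntf3*, whereas the other 2 MRL/lpr mice lie highest for *Ntf3*. The order differs on the scale of spots valid in all samples.

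*Ntrk2* encodes TrkB, the receptor of BDNF. Averaged over its 3 probes, levels were 2.22, 2.42, 1.08 and 0.877 in MRL/lpr, 3.73, 2.89, 3.05 and 2.91 in Fn14ko-labelled mice, and 2.34, 3.93, 2.58 and 3.73 in MRL/+. MRL/lpr lay below all Fn14ko-labelled mice and overlapped MRL/+ by 1 mouse. The log2 fold change was −1.06 ± 0.35 against the former (limma adjusted p = 0.086) and −1.03 ± 0.35 against MRL/+ (adjusted p = 0.074). Without the dim array and with spots valid in 10 samples it was −0.52 ± 0.17 (adjusted p = 0.089) and −0.24 ± 0.17 (adjusted p = 0.34). Both comparisons passed only when MRL/lpr replicate 1 was left out (−1.29 and −1.26, adjusted p = 0.022 and 0.020) or replicate 2 (−1.29 and −1.27, adjusted p = 0.018 and 0.022), among the 12 fits without 1 mouse. Fn14ko-labelled mice and MRL/+ differed by 0.03 ± 0.35 (adjusted p = 0.98, 95% interval −0.73 to 0.78).

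Probe by probe, the full-length *Ntrk2* probe read 1.51, 1.74, 1.17 and 1.07 in MRL/lpr, 2.11, 3.19, 2.07 and 2.99 in Fn14ko-labelled mice, and 2.38, 3.25, 2.69 and 3.07 in MRL/+. All 4 MRL/lpr mice lay below the other 8. The difference from MRL/+ was −1.07 ± 0.23 (limma adjusted p = 0.021 over 10201 probes, of which 9.35% were called) and that from Fn14ko-labelled mice −0.92 ± 0.23 (adjusted p = 0.052, with 3.56% called). Over the 10 samples outside the dim array both passed, at −0.64 ± 0.19 (adjusted p = 0.045, with 16.9% of 23488 probes called) and −0.74 ± 0.19 (adjusted p = 0.040, with 8.44% called).

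The shared coding probe read 3.68, 3.97, 1.78 and 1.11 in MRL/lpr, 6.26, 3.81, 4.77 and 3.48 in Fn14ko-labelled mice, and 3.53, 6.96, 3.89 and 6.21 in MRL/+. Outside the dim array MRL/lpr was within the range of both other strains, and no comparison passed (−1.09 ± 0.43 against MRL/+, adjusted p = 0.099). The truncated-receptor probe read 1.48, 1.56, 0.296 and 0.455 in MRL/lpr, 2.83, 1.66, 2.31 and 2.26 in Fn14ko-labelled mice, and 1.11, 1.60, 1.17 and 1.91 in MRL/+. It was lower in every MRL/lpr mouse than in every Fn14ko-labelled mouse (−1.58 ± 0.49, adjusted p = 0.081). In the 10 samples outside the dim array it was 0.91 ± 0.18 higher in Fn14ko-labelled mice than in MRL/+ (adjusted p = 0.0089, with 24.4% of probes called, and 0.66 with adjusted p = 0.62 over all 12 samples, with 0.745% called), whereas the full-length probe differed by 0.10 ± 0.16 there (adjusted p = 0.66).

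Whether the strains differed in the balance of these 2 probes was tested on the log2 difference of full-length and truncated within each mouse. The mean was 0.192 ± 0.610 (SD, n = 4) in Fn14ko-labelled mice and 1.00 ± 0.223 in MRL/+, a difference of −0.81 (exact permutation test, p = 0.057, and 0.21 after Benjamini-Hochberg adjustment over 12 comparisons of *Ntrk2* and *Ntrk3* probe pairs). It was −1.44 within Cy3 and −0.18 within Cy5. MRL/lpr ranged from 0.03 to 1.98 in this measure, and none of the 12 comparisons passed after adjustment.

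**Figure D3:**
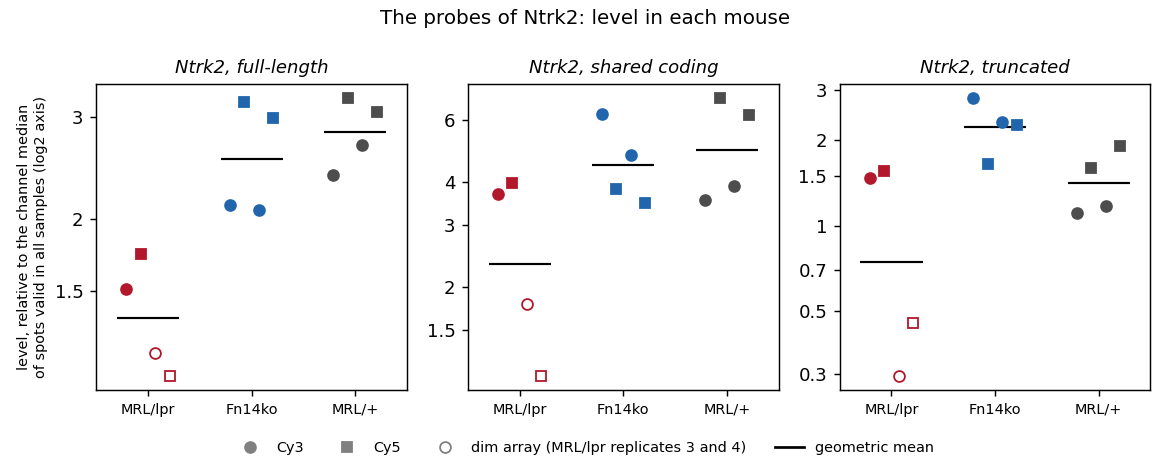
Level of the full-length, shared coding and truncated probes of *Ntrk2* in each mouse, relative to the channel median of the spots valid in all samples (log2 axis), with circles for Cy3, squares for Cy5, open symbols for the dim array and lines for geometric means of 4 mice. Only the full-length probe separates all 4 MRL/lpr mice from the other 8.

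The full-length *Ntrk2* probe also shows the spread of repeated spots, since it lay at 10 places on each array. The ratio of the highest to the lowest of the 10 spots was 1.59 to 2.47 in 8 of the 12 samples, in which the coefficient of variation was 16.4% to 33.3%. In MRL/lpr replicates 3 and 4 the ratio was 11.1 and 3.66, and in MRL/+ replicates 2 and 4 it was 15.1 and 8.54, with coefficients of variation of 46.9%, 37.3%, 54.0% and 49.7%. The SD of log2 levels over the spots was 0.241 in the steadiest sample (MRL/lpr replicate 1) and 1.27 in the least steady (MRL/+ replicate 2). Over the 18 probes with at least 9 spots valid in all samples, this one included, the median SD was also largest in MRL/+ replicates 2 and 4 (1.18 and 1.05) and MRL/lpr replicate 3 (0.815). Every other probe of the members had a single spot, so its own spread could not be measured. Values of single-spot probes in these channels may carry a similar spread, and how far they do was not tested.

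**Figure D4:**
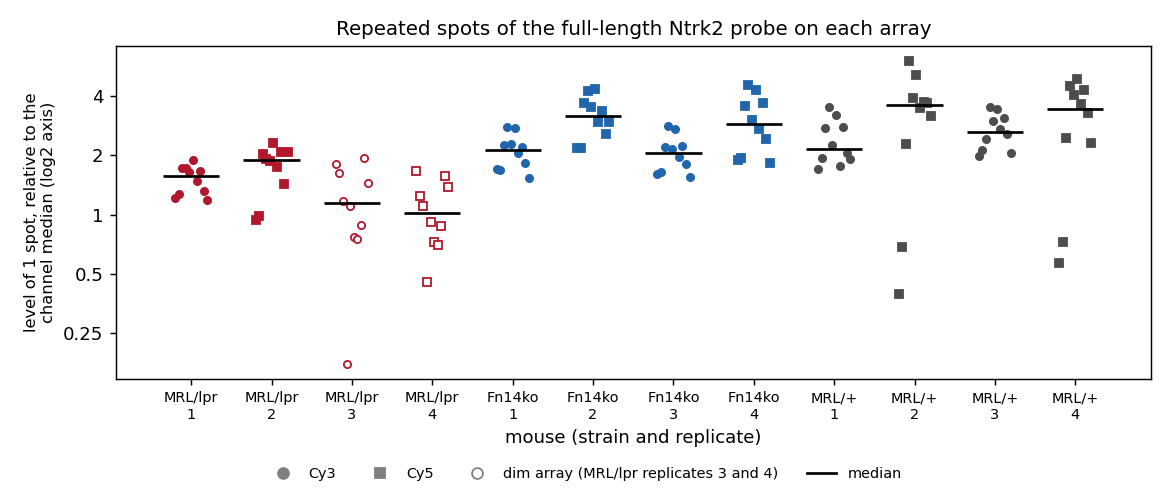
Level of each of the 10 spots of the full-length *Ntrk2* probe in each mouse, relative to the channel median (log2 axis), with circles for Cy3, squares for Cy5, open symbols for the dim array and lines for medians. The spots of MRL/+ replicates 2 and 4 and of MRL/lpr replicate 3 spread most, from 0.398 to 6.01 in the widest case.

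*Ntrk3* encodes TrkC, the receptor of neurotrophin-3. Over the 2 probes valid in all samples, levels were 1.32, 1.31, 1.75 and 2.12 in MRL/lpr, 1.05, 1.22, 1.48 and 1.37 in Fn14ko-labelled mice, and 1.36, 0.805, 1.06 and 0.853 in MRL/+. MRL/lpr exceeded MRL/+ by 0.67 ± 0.25 (limma adjusted p = 0.088) and Fn14ko-labelled mice by 0.32 ± 0.25 (adjusted p = 0.32), with overlap in both. The first of these passed without MRL/lpr replicate 1 (0.80, adjusted p = 0.036) or 2 (0.76, adjusted p = 0.048), and it was 0.46 ± 0.21 in the 10 samples outside the dim array (adjusted p = 0.15). Fn14ko-labelled mice and MRL/+ differed by 0.35 ± 0.25 (adjusted p = 0.60).

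The 4 *Ntrk3* probes were not all on 1 scale, so their signs cannot be set against each other with all 12 samples. In MRL/lpr compared with MRL/+ the 2 valid ones were at 0.63 ± 0.27 (first full-length probe, adjusted p = 0.12) and 0.62 ± 0.34 (truncated, adjusted p = 0.19), and the 2 measured with no filter at −0.98 ± 0.60 (second full-length probe, adjusted p = 0.41) and −0.76 ± 0.73 (other truncated probe, adjusted p = 0.65). Both of the latter were low on the dim array, at 2.24 and 1.21 for the full-length probe compared with 10.4 and 6.67 in the other MRL/lpr mice. Even the 2 full-length probes differed from each other between Fn14ko-labelled mice and MRL/+. Their log2 difference within a mouse was 1.43 higher in the former, without overlap (exact permutation test, p = 0.0286, and 0.21 after adjustment over the 12 comparisons), at 0.56 within Cy3 and 2.30 within Cy5. In the 10 samples outside the dim array, over a single set of probes, the first was 0.84 ± 0.27 higher in Fn14ko-labelled mice than in MRL/+ (adjusted p = 0.047) and the second 0.59 ± 0.16 lower (adjusted p = 0.025). The truncated probes were at 0.44 and −0.15 there, so the 4 probes had no common direction between these strains. In MRL/lpr compared with MRL/+ all 4 were above 0 on that single scale, at 0.96, 0.04, 0.18 and 0.60, and none passed.

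**Figure D5:**
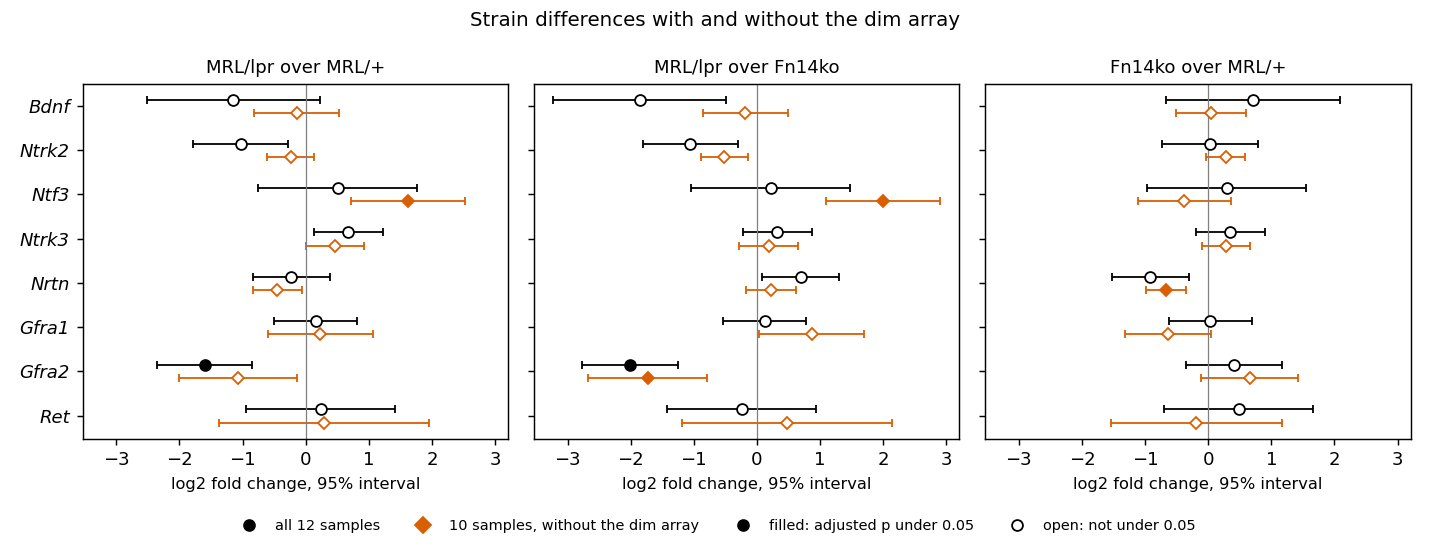
Log2 fold change with its 95% interval for 8 members (*Gdnf* is left out as not detected in 2 strains), in the 3 comparisons, with all 12 samples (black circles) and with the 10 samples outside the dim array (orange diamonds); filled symbols have a limma adjusted p under 0.05. *Gfra2* is filled with all 12 samples against both strains, *Ntf3* with 10 samples against both, and *Nrtn* with 10 samples between Fn14ko-labelled mice and MRL/+.

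Other genes of these pathways were counted in the same fit. Of 8 genes that process proneurotrophins, 2 were valid in all samples, and both were lower in MRL/lpr than in MRL/+, where 9.17% of all valid genes were called. Neither was called with a random block for the array (adjusted p = 0.31 for *Pcsk2* and 0.29 for *Serpini1*). *Pcsk2*, a prohormone convertase of secretory granules, was at 5.28 ± 1.35 and 9.98 ± 0.926 (−0.95 ± 0.24, adjusted p = 0.035). *Serpini1*, neuroserpin, an inhibitor of tissue plasminogen activator, was at 2.35 ± 1.13 and 5.88 ± 1.13 (−1.45 ± 0.35, adjusted p = 0.031). *Serpini1* was also lower than in Fn14ko-labelled mice (−1.53 ± 0.35, adjusted p = 0.037, and 0.28 with the array block), where 3.98% of valid genes were called. Without the dim array the 2 *Serpini1* differences missed the threshold (−0.63, adjusted p = 0.15, and −0.96, adjusted p = 0.061), whereas that of *Pcsk2* passed (−0.87, adjusted p = 0.0073).

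Among 41 adaptors and kinases downstream of Trk receptors and RET, 23 were tested. In MRL/lpr compared with MRL/+, 1 was higher, *Mapk7*, the kinase ERK5 (0.94 ± 0.24, adjusted p = 0.035), and 1 lower, *Akt2*, a kinase of the PI3K pathway (−1.30 ± 0.31, adjusted p = 0.029), with a median of −0.50 for the 23 and −0.01 over all genes. In the 10 samples outside the dim array the list's median was −0.11 and that of all genes −0.10, and *Akt2* was at −0.60 (adjusted p = 0.044). There 39 of the list were tested. In MRL/lpr compared with MRL/+ 6 were called (2 higher and 4 lower), and compared with Fn14ko-labelled mice 4 (all lower). Between the latter and MRL/+ 6 were called (4 higher and 2 lower). The shares of all genes called were 15.7%, 9.12% and 21.1% in that order. *Dok4* was among those lower in MRL/lpr than in Fn14ko-labelled mice, at −0.90 (limma adjusted p = 0.025). With all 12 samples *Dok4* was instead 0.98 higher in MRL/lpr, with overlap (adjusted p = 0.33). With all 12 samples, in the 2 comparisons that involve Fn14ko-labelled mice, 0 of the 23 were called by limma, with 10 and 0 at an unadjusted p under 0.05. Of 11 effectors of the p75 neurotrophin receptor, 8 were tested and 1 was called, *Arhgdia*, lower in MRL/lpr than in MRL/+ (−1.40 ± 0.33, adjusted p = 0.030). These counts, 2 of 23 and 1 of 8, stand beside 9.17% of all valid genes called in this comparison. When a random block for the array was fitted, 0 genes of these 3 lists passed in any comparison. In the 10 samples outside the dim array, 3 of 11 p75 effectors were higher in Fn14ko-labelled mice than in MRL/+, beside 21.1% of all genes called. They were *Maged1* (1.28, adjusted p = 0.027) and *Bex1* (1.21, adjusted p = 0.015), which bind the receptor's intracellular part, and *Lingo1* (0.76, adjusted p = 0.039), its partner in the Nogo receptor complex.

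Markers of brain regions and cell types moved with strain as well. Over 8 tested markers of the dentate gyrus and CA fields, the median log2 fold change of MRL/lpr was 2.07 against MRL/+ and 2.40 against Fn14ko-labelled mice, and between the latter and MRL/+ it was −0.01. In the first 2 of these, 4 and 5 of the 8 were called, all higher in MRL/lpr, beside 9.17% and 3.98% of all valid genes. *Lct* was 2.71 and 3.19 higher (limma adjusted p = 0.00098 and 0.00064), whereas *Wfs1* was at −0.92 and −1.21 (adjusted p = 0.25 and 0.14). One of the 11 listed, *Tdo2*, was not well above background in any Fn14ko-labelled mouse or MRL/+. The summed level of the 11 on the scale with no filter was 45.4 to 184 in MRL/lpr, 155 to 189 in Fn14ko-labelled mice and 40.9 to 146 in MRL/+. The choroid plexus marker *Ttr* was at 15.2 ± 13.3 in MRL/lpr, compared with 1.55 ± 2.05 and 1.05 ± 0.318, and the summed level of 10 such markers was 55.0 to 620.4, 11.3 to 144 and 14.05 to 28.8. Striatal markers summed to 17.6 to 67.5 in MRL/lpr, 174 to 669 in Fn14ko-labelled mice and 35.6 to 210 in MRL/+. In the 10 samples outside the dim array the median log2 fold change of these 8 was −1.73 in MRL/lpr against Fn14ko-labelled mice and 1.31 in the latter against MRL/+. With all 12 samples only 4 were tested, and the same medians were −0.05 and 0.44. Against Fn14ko-labelled mice these 4 were split in MRL/lpr. *Ppp1r1b* was at −1.85 (limma adjusted p = 0.020) and *Tac1* at −0.96 (0.15), but *Rgs9* was at 3.77 (0.11) and *Drd2* at 0.86 (0.58). Of 5 tested astrocyte markers 1, *Gfap*, was called in MRL/lpr compared with MRL/+ (2.26 ± 0.30 higher on the log2 scale), whereas *Slc1a3* was at −1.57 (adjusted p = 0.095), and the median of the 5 was 0.15. Of 7 neuron markers 0 were called by limma in any comparison, with 4, 5 and 0 at an unadjusted p under 0.05. Their median was −0.87 against MRL/+ and −1.02 against Fn14ko-labelled mice, and −0.09 and −0.30 in the 10 samples outside the dim array. When a random block for the array was fitted, 0 genes of any marker list passed, *Lct* being at an adjusted p of 0.085 and 0.052 and *Gfap* at 0.21 against MRL/+. The part of tissue composition in the values of *Gfra2*, *Nrtn*, *Ntf3* and *Ntrk2* was not tested, and in whole tissue fewer cells of a type and less RNA per cell cannot be told apart.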

How the data were processed

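Total RNA of 12 hippocampi was labelled, hybridized to 6 arrays and scanned by the authors. Spots were quantified in Agilent Feature Extraction 12.1, per the file headers and the submitters' processing notes. The deposited files hold an intensity per spot and dye on a linear scale, not normalized between channels, with probe positions in mm9. The number of arrays limits the precision. The sample descriptions also mention the cortex, whereas source and tissue give the hippocampus.

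From these intensities the median local background was subtracted, and 10877 spots valid in all 12 samples (foreground at least 2 times background, no outlier flag) were divided by their channel median and averaged per gene, following the study's methods. Members without such a spot were taken from a fit over all 43020 probe spots, divided by the median of all of them and floored at 1% of it. The test was limma 3.58.1 (R 4.3.3) on log2 values (trend, dye as a covariate, all 12 samples in 1 fit, Benjamini-Hochberg adjustment, threshold 0.05). It was checked on simulated data with independent samples and no array effect. In the real data the consensus correlation within arrays was 0.71 over genes valid in 12 samples, so the check does not cover false calls from shared arrays. Random blocks used statmod 1.5.0, and other steps Python 3.11.15 with scipy 1.17.1 and matplotlib 3.10.9. Each mouse was 1 replicate, but p-values of fits without the array block treat mice that share an array as independent.

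Named were the 9 members, *Tnfrsf12a* and *Fas*, and up to 4 genes per pathway list and comparison past the threshold whose strains do not overlap. *Dok4*, *Maged1*, *Bex1*, *Lingo1* and the region and cell type markers were named after their values were seen. Some genes of the lists are not reported here. The members and lists were chosen with earlier results of these data known. Tried as alternatives were other background corrections and normalizations, array and replicate blocks, array weights, leaving out the dim array or each mouse, and the methods' t-test. The scaling of unfiltered genes by valid spots, the values within each dye and the probe pairs were added after seeing the data.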

Additional observations from a re-analysis of the deposited data

How the results depend on the processing

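Over the 3 comparisons, in the order MRL/lpr against MRL/+, MRL/lpr against Fn14ko-labelled mice, and the latter against MRL/+, 813, 353 and 46 genes and 1, 1 and 0 members were called. Without a filter these were 294, 3787 and 0 genes and 0, 2 and 0 members, and *Ntrk3* turned to −0.16 and −1.10 in the comparisons of MRL/lpr and *Nrtn* to −0.77 in the second. Agilent's processed signal gave 647 genes and 2 members in the second comparison, and reversed *Nrtn* (0.82), *Gfra1* (−1.09, −0.32 and −0.77 in order), *Ret* (1.00 in the second) and, in the third, *Ntrk3* (−0.0273) and *Gfra2* (−0.27). Normexp with quantile normalization gave 169 and 12 genes in the second and the third and −0.0739 for *Bdnf* and −0.19 for *Ntf3* in the third. Loess with Aquantile gave 171 and 18 genes, −0.0347 for *Ret* in the first, and −0.0853 for *Bdnf* and −0.0703 for *Ntf3* in the third. With the array as a random block 7, 4 and 0 genes and 0 members were called. Without the dim array 1604, 638 and 2484 genes and 2, 2 and 1 members were called, with *Bdnf* at 0.00831 in the first. With spots valid in 10 samples these were 2818, 1636 and 3785 genes and 1, 2 and 1 members, with *Ret* at 0.47 in the second and *Ntf3* (−0.38), *Gfra1* (−0.63) and *Ret* (−0.19) reversed in the third. Estimated array weights gave 1450, 903 and 3407 genes and 2, 5 and 4 members, with *Bdnf* (−1.92, adjusted p = 7.8e-06) and *Gfra1* (0.47, adjusted p = 0.016) among those called in the second, *Ntrk3* at −0.0459 in the second and *Ntrk2* (−0.0663) and *Gfra1* (−0.14) reversed in the third. The methods' t-test called 1403, 1155 and 1493 genes and 3, 3 and 1 members unadjusted, but 0, 0 and 8 genes and 0 members after Benjamini-Hochberg adjustment, with *Ntrk2* at −0.000965 in the third. Scaled by the spots valid in all samples, *Ret* was at 1.21 in the second, and *Bdnf* (−0.21), *Ntf3* (−0.63), *Gfra1* (−0.88) and *Ret* (−0.44) reversed in the third.

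Leaving out 1 mouse at a time gave 126 to 3467, 40 to 4304 and 0 to 126 genes and 0 to 3, 0 to 4 and 0 members. *Ntf3* then ranged from −0.0330 to 1.08 against MRL/+ and from −0.32 to 0.79 against Fn14ko-labelled mice, *Ret* from −0.80 to 0.42 and *Gfra1* from −0.00346 to 0.30 in the second, and *Ntrk2* from −0.0987 to 0.14, *Gfra1* from −0.0826 to 0.16 and *Ret* from −0.19 to 1.03 in the third. The cause of these moves was not tested.

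With the replicate block 506, 179 and 0 genes were called and no member call changed. Same-numbered mice share a dye. Their deviations from the strain means correlated with r from −0.40 to 0.50 over 12 pairs, and a sample correlated best with its own number in 9 of 24 cases. After the dye means were removed r ran from −0.39 to 0.11. These last deviations mirror each other within a strain and dye, so the same r recurs and a pairing could hardly show. Whether mice were paired by number is not settled by these values. Slide could not be fitted as a block, since each slide held 1 strain, and was not run.

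Both comparisons of MRL/lpr kept the direction of *Gfra2* under all alternatives run. *Nrtn* was lower in Fn14ko-labelled mice than in MRL/+, at −0.67 to −1.02, in all alternatives but that with no filter (−0.000906, adjusted p = 0.999). Signal over background limits *Bdnf*, *Ntf3*, *Gfra1*, *Ret* and *Gdnf* and the *Gfra2* value of MRL/lpr replicate 4, and the Cy5 channels of MRL/+ limit single-spot probes.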
